A study of Mus musculus with 20 samples.

Results

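The genes described here are the nuclear genes for the subunits of the mitochondrial respiratory chain and ATP synthase, measured in microglia, the resident macrophages of the brain. They were taken by symbol from the protein-coding genes of the GENCODE annotation of GRCm38: the numbered Ndufa, Ndufb, Ndufc, Ndufs and Ndufv genes of complex I, Sdha to Sdhd of complex II, the Uqcr genes of complex III, 10 Cox genes of complex IV and the Atp5 genes of complex V. The rule found 76 of the 54838 genes counted: 36 of complex I, 4 of complex II, 8 of complex III, 10 of complex IV and 18 of complex V. It uses names only, no measured value. A further 7 processed pseudogenes with matching names were left out. Ndufa4 is kept with complex I by its name, although its protein is now assigned to complex IV. The genes were counted in 20 libraries, 1 per mouse, from the frontal cortex at postnatal day 40. For each mouse, 1000 cells were sorted for high CD11b and low CD45. The labels name 4 wild-type mice (WT), 5 mice lacking C4 (C4-/-), 5 with the human C4A gene on 1 allele (hC4A/-), 4 with human C4B on 1 allele (hC4B/-) and 2 with human C4A on both alleles (hC4A/A). C4 is a protein of the classical complement pathway, and the series describes the carriers of human C4 as humanized transgenic mice. Strain, sex, litter, the way the human genes were inserted and the state of mouse C4 in their carriers are absent from the labels used here.

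Complexes I and II take electrons from NADH and succinate, complex III passes them to cytochrome c and complex IV passes them to oxygen. Complexes I, III and IV pump protons across the inner membrane, and complex V, the ATP synthase, uses the returning protons to make ATP. Most subunits are encoded in the nucleus and imported. The mitochondrial genome encodes the remaining core subunits of complexes I, III, IV and V, whereas complex II is wholly nuclear. Transcription of many nuclear subunit genes is associated with the factors NRF1, the ETS factor GABPA and YY1. Resting microglia are known to use oxidative phosphorylation, and inflammatory activation is known to shift them toward glycolysis.

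Motifs of these factors were looked for in the promoters of the family. RefSeq promoter windows of the GRCm38.p6 assembly, 250 bases before to 50 bases after the start, matched 61 of the 75 symbols of the family and 27025 symbols in all. Each window was searched on both strands for GCGCATGCG (named here for NRF1), CCGGAAG (for ETS factors such as GABPA) and AAGATGGCG (for YY1). GCGCATGCG lay in 8 of the 61 windows (13.1%), against 1.95% of all windows and 4.42% of the 8583 windows of protein-coding genes tested here. CCGGAAG lay in 16 (26.2%), against 9.93% of all windows and 20.96% of those of tested genes. AAGATGGCG lay in 7 (11.5%), against 1.64% and 3.81%. At least 1 of the motifs lay in 26 windows (42.6%), against 12.7% and 27.0%, and 35 windows held none. By complex, 11 of 32 windows of complex I, 2 of 3 of complex II, 3 of 5 of complex III, 3 of 8 of complex IV and 7 of 13 of complex V held 1 or more. AAGATGGCG lay in 5 windows of complex I and 2 of complex V. CCGGAAG lay in 4 of complex I (12.5%), a smaller share than among tested genes. A match describes the letters of a window and is no measurement of binding. The 26 genes with a motif had a median level of 7.66 CPM (read counts scaled to the library's total) per kb of exon. For 34 of the 35 genes with none it was 9.59, and the ranges of 1.77 to 36.5 and 1.27 to 31.0 overlapped. Atp5o, which has 2 gene identifiers, was left out of the latter, and its counted model had 2.22.

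Where the matches lay within the windows was not counted, and some genes with a window were not examined further. The longest exon-free stretch upstream, of at least 60 bases, was searched in 51 genes, and 6 of them had a match there. The stretch with the most motif bases is shown for complexes I, III, IV and V, as examples of the matches counted there. In complex III Uqcrh held as many, 7, from 1 match for ETS factors, and Uqcr11 is shown as the first by symbol. The sixth gene was Atp5e, with 1 match for ETS factors. No stretch examined of complex II held a match. Each runs 5′ to 3′ on the strand of the gene, with motif letters on either strand in capitals, and all 4 genes lie on the minus strand. The stretches are chr4:40279422-40279671 for Ndufb6, chr10:80406831-80407071 for Uqcr11, chr5:115348982-115349129 for Cox6a1 and chr9:44920752-44920992 for Atp5l. In Cox6a1 the capitals are GCGCATGCG and its reverse complement, which overlap. Atp5l holds a match for NRF1 and, closer to the start, 1 for ETS factors, while Ndufb6 and Uqcr11 hold 1 for ETS factors.
Ndufb6: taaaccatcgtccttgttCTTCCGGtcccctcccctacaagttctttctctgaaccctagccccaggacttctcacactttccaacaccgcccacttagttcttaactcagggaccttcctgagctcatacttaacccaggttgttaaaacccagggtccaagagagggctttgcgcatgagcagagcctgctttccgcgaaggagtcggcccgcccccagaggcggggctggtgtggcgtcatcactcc
Uqcr11: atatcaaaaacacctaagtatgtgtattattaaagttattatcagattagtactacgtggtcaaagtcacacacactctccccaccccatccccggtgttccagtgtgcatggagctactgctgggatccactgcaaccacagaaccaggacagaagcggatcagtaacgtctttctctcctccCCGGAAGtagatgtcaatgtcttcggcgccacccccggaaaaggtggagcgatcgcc
Cox6a1: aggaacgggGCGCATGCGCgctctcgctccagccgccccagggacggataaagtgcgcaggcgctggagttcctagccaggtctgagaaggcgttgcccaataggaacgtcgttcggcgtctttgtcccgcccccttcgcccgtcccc
Atp5l: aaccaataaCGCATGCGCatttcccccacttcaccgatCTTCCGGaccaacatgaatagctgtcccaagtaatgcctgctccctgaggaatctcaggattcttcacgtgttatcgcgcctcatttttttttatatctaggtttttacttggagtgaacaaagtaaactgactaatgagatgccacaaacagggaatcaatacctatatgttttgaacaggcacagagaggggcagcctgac

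The libraries held 855099 to 2735181 counts over genes, and the family took 349 to 8184 of them, with 72 to 75 of its genes detected in each library. The median count of a gene of the family was 4 to 76 per library, so single genes rest on few reads. The cDNA was amplified and carried no molecular identifiers. All 11 microglial markers examined were detected in every library, at a summed level of 4876 to 12291 CPM. Markers of other cell types were also present: those of astrocytes summed to 57.2 to 737 CPM, of oligodendrocytes to 40.2 to 363, of neurons to 2.69 to 115, of endothelial and mural cells to 3.45 to 73.9, of monocytes and border macrophages to 10.9 to 107, of neutrophils to 0 to 1415 and of erythroid cells to 0 to 42.7. CPM here are scaled by the trimmed mean of M values (TMM). In 4 libraries over 27000 genes were detected, against 11348 to 23912 in the other 16: replicate 2 of hC4A/A, replicate 3 of C4-/-, and replicates 2 and 3 of hC4B/-. They are called the broad libraries below. Gm10800, a predicted gene of satellite-like sequence, took 40.4% to 65.9% of their counts and 9.61% to 45.1% elsewhere. Counts were found for 55.7% to 73.5% of 1459 receptor genes there, against 6.03% to 39.5% in the rest. Their astrocyte markers summed to 57.2 to 118 CPM, against 163 to 737 elsewhere, and their oligodendrocyte markers to 40.2 to 84.4, against 104 to 363. For the remaining marker lists the ranges overlapped. The median for endothelial and mural markers was 39.2 CPM, against 13.5 elsewhere, and for microglial markers 7380, against 9369. The part of these in the results was not tested. Mouse C4b went against the labels of WT and C4-/-: the 4 libraries labelled WT held 0 to 2 counts of it and the C4-/- libraries 7 to 157. The carriers of human C4, for which the labels do not give the state of mouse C4, held 4 to 428. The 4 broad libraries had the highest counts, 157 to 428. Genotype names below are those of the labels, and every direction between genotypes depends on them. In bulk RNA, a change in the cells captured and a change of RNA per cell cannot be told apart.

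Of the 76 genes, 73 passed the filter on low counts: all of complexes I to IV and 15 of the 18 of complex V. The 3 that did not were Atp5k with 88 counts over all libraries, Atp5s with 44, and the second of 2 gene identifiers for Atp5o, with 0. The 2 Atp5o models overlap each other, and the one that was counted held 164. Reads that map to several places were not counted, which touches genes with processed copies elsewhere. Counting ignored strand, so reads in exons shared with another gene can fall among the ambiguous reads, which stayed out of the counts. Such exons are shared by Atp5j with Gabpa, Ndufb2 with Braf and Cox4i1 with Emc8. The levels of such genes may thus be understated.

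Per kb of exon, the genes of the family lay above most expressed genes. Their median level was 9.52 CPM per kb (interquartile range 5.35 to 18.96, mean of 20 libraries), and that of the 10767 protein-coding genes tested was 2.44 (0.967 to 6.62). Complex IV had the highest median, 19.7 CPM per kb, followed by complex III with 14.3. Complex V had 8.83, complex I 8.80 and complex II 6.31. The order within complexes spanned a wide range. In complex I, Ndufs8 (36.5 CPM per kb) and Ndufs3 (29.2), iron-sulfur and core subunits of the matrix arm, were highest, and Ndufb4 was lowest with 1.27. Sdhb, the iron-sulfur subunit of complex II, had 17.4 and the membrane anchor Sdhc 2.06. In complex III, Uqcr10 had 19.5 and the core protein Uqcrc2 4.35. In complex IV, Cox8a had 33.1, Cox6a1 25.6 and Cox4i1 23.1, whereas Cox5a, with 82 counts over all libraries, had 1.29. Subunits of the catalytic part of the ATP synthase led complex V: Atp5a1 (alpha) had 31.4 CPM per kb, Atp5c1 (gamma) 31.0, Atp5d (delta) 28.6 and Atp5b (beta) 23.2. Atp5e (epsilon), of the same part, had 5.67. Atp5l, a membrane subunit, had 1.92. Exon length is the union of all annotated exons of a gene, so genes with long rare transcripts, such as Ndufb2, Ndufb7 and Atp5l, are placed lower than by a single transcript.

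**Figure D1:**
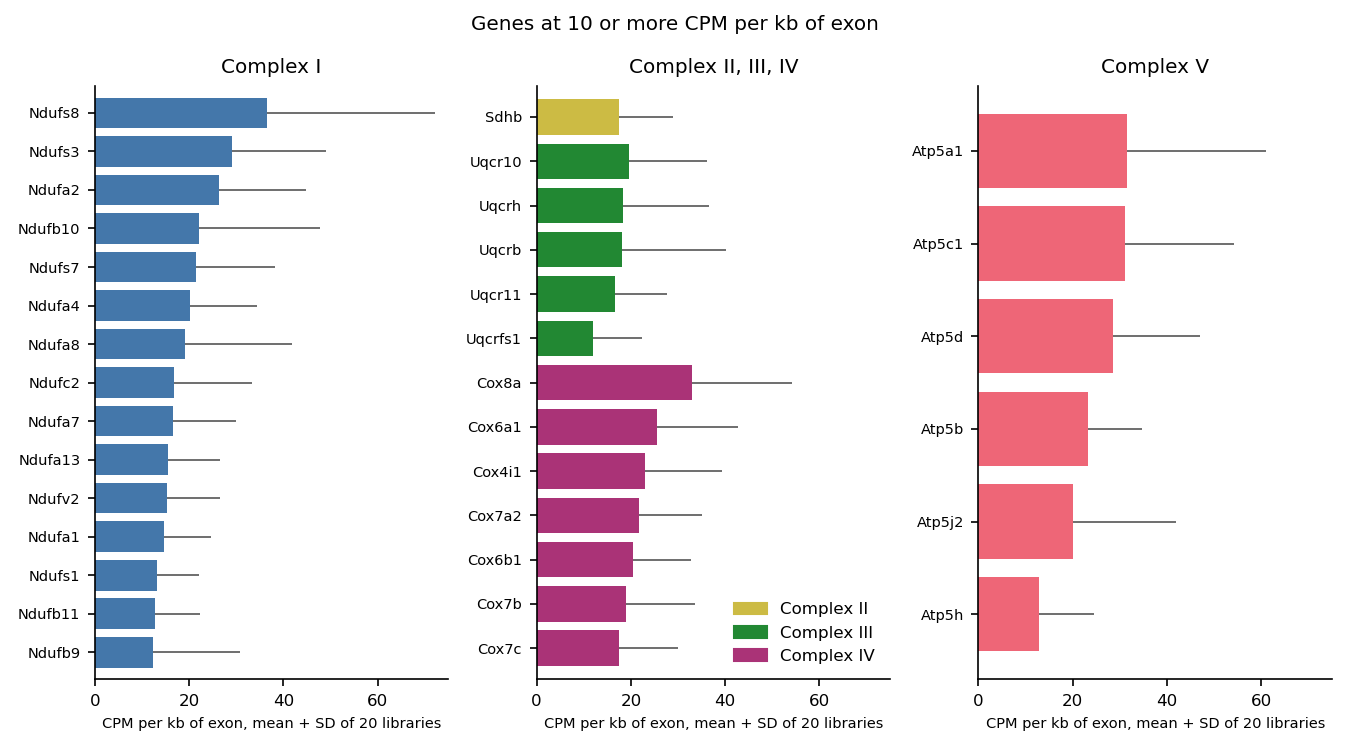
Level of the 34 genes at 10 or more CPM per kb of exon, a minimum chosen after the values were seen, of the 73 tested, on a linear axis; bars are means over 20 libraries and whiskers 1 SD above the mean. Ndufs8 (36.5), Cox8a (33.1) and Atp5a1 (31.4) have the longest bars, and Sdhb (17.4) is the only gene of complex II shown.

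The isoforms present were the widely expressed ones. Cox4i1, Cox6a1, Cox6b1, Cox7a2 and Cox8a held 566 to 1343 counts each, against 6 for Cox4i2, 6 for Cox6a2, 15 for Cox6b2, 10 for Cox7a1, 4 for Cox8b and 1 for Cox8c over all 20 libraries. These counterparts are known from lung, muscle and testis, and none passed the filter. Ndufa4 held 1072 counts and its paralog Ndufa4l2 held 8. Cox7a2l, which is linked to the assembly of supercomplexes, passed the filter with 15.7 to 91.8 CPM in the 16 other libraries.

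Values in every library show how far single genes varied. For Ndufs8 (chr19:3908863-3912774), the 4 WT libraries had 27.4, 23.5, 25.3 and 52.8 CPM. C4-/- had 56.9, 23.3, 9.83, 30.6 and 95.8, hC4A/- 39.3, 20.4, 17.2, 64.4 and 128.3, hC4B/- 61.1, 8.44, 192.6 and 32.2, and hC4A/A 32.9 and 1.30. Its highest library, hC4B/- replicate 3, and its lowest, hC4A/A replicate 2, were both broad ones, and all genotypes overlapped.

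Sdhb (chr4:140961203-140979193) had 56.4, 10.7, 70.5 and 74.8 CPM in WT, 47.7, 15.9, 18.4, 29.0 and 101.8 in C4-/-, 28.3, 27.9, 35.01, 50.3 and 63.6 in hC4A/-, 60.7, 16.9, 18.4 and 7.31 in hC4B/-, and 28.7 and 18.1 in hC4A/A. The lowest library, hC4B/- replicate 4, was not a broad one. Uqcr10 (chr11:4701973-4704342), a small subunit of complex III, had 12.7, 10.7, 37.6 and 16.3 CPM in WT and 13.2, 2.80, 5.90, 7.52 and 32.6 in C4-/-. It had 3.45, 2.69, 8.24, 18.7 and 12.2 in hC4A/-, 4.27, 1.21, 19.1 and 8.77 in hC4B/-, and 5.16 and 5.18 in hC4A/A. Both hC4A/A values lay below all 4 WT values, and within the range of each other genotype.

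Cox8a (chr19:7215153-7217616) had 17.02, 6.41, 42.9 and 11.4 CPM in WT, 32.8, 7.46, 11.8, 18.8 and 49.2 in C4-/-, 13.1, 14.5, 10.3, 23.4 and 32.0 in hC4A/-, 33.3, 3.62, 32.0 and 18.3 in hC4B/-, and 27.1 and 3.89 in hC4A/A. Its 2 lowest values came from broad libraries. Atp5a1 had 95.1, 73.3, 96.6 and 73.5 CPM in WT, 209.4, 433.6, 43.9, 46.7 and 103.8 in C4-/-, 108.4, 83.3, 68.0, 108.9 and 40.5 in hC4A/-, 35.02, 19.3, 184.4 and 60.7 in hC4B/-, and 65.1 and 20.7 in hC4A/A. In C4-/- replicate 2 this gene alone took 27.1% of the counts of the family, and complex V made up 49.4% of its CPM, the highest share of the 20 libraries.

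Over the 16 libraries that were not broad, the coefficient of variation of a gene of the family had a median of 0.655, from 0.352 for Atp5b to 1.67 for Sdhc. The median over all 12680 genes tested was 1.09. These values include differences between genotypes and counting error, which is larger for low genes.

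The summed level of the family differed more within genotypes than between their means. The WT libraries had 1506 ± 493 CPM (SD, n = 4). C4-/- had 1857 ± 979 (SD, n = 5) and hC4A/- 1776 ± 632 (SD, n = 5). For hC4B/- it was 1501 ± 843 (SD, n = 4), and the 2 hC4A/A libraries had 1513 and 452. The ranges of all 5 genotypes overlapped. Of the 4 broad libraries, 3 had the lowest sums of all, 452, 478 and 644 CPM, below the 855 to 2962 of the other 16. The fourth, hC4B/- replicate 3, had 2056. Without the broad libraries the mean was 2160 ± 816 in C4-/- (n = 4) and 1735 ± 818 in hC4B/- (n = 2). Scaled by relative log expression (RLE) in place of TMM, those 3 libraries had 688, 672 and 864 CPM, still below the 937 to 2255 of the other 16, and hC4B/- replicate 3 had 2674, above them. The place of C4-/- replicate 3 depended on the scaling. In unscaled CPM it had 836, above the 701 of WT replicate 2. With Gm10800 left out of the library totals it had 1404, above 1177. By both measures hC4A/A replicate 2 (408 and 946) and hC4B/- replicate 2 (280 and 819) stayed below all 16.

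Gene by gene, the broad libraries were not alike either. Of the 75 genes with a count, hC4A/A replicate 2 lay below all 16 other libraries for 33, hC4B/- replicate 2 for 31 and C4-/- replicate 3 for 17. In hC4B/- replicate 3, 8 genes lay below and 13 above all 16, of which 10 were complex I genes. The same counts were not made over all genes, so they describe these libraries and show no trait of the family alone. Complex I took 32.8% to 51.5% of the family's CPM over the 20 libraries, complex V 24.6% to 49.4%, complex IV 6.48% to 13.3%, complex III 3.09% to 12.5% and complex II 2.71% to 11.1%. The 2 highest shares of complex II, 11.1% and 10.3%, came from hC4B/- replicate 2 and hC4A/A replicate 2. The CPM of complex IV relative to complex I ran from 0.17 to 0.35, and that of complex V relative to complex I from 0.48 to 1.32.

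**Figure D2:**
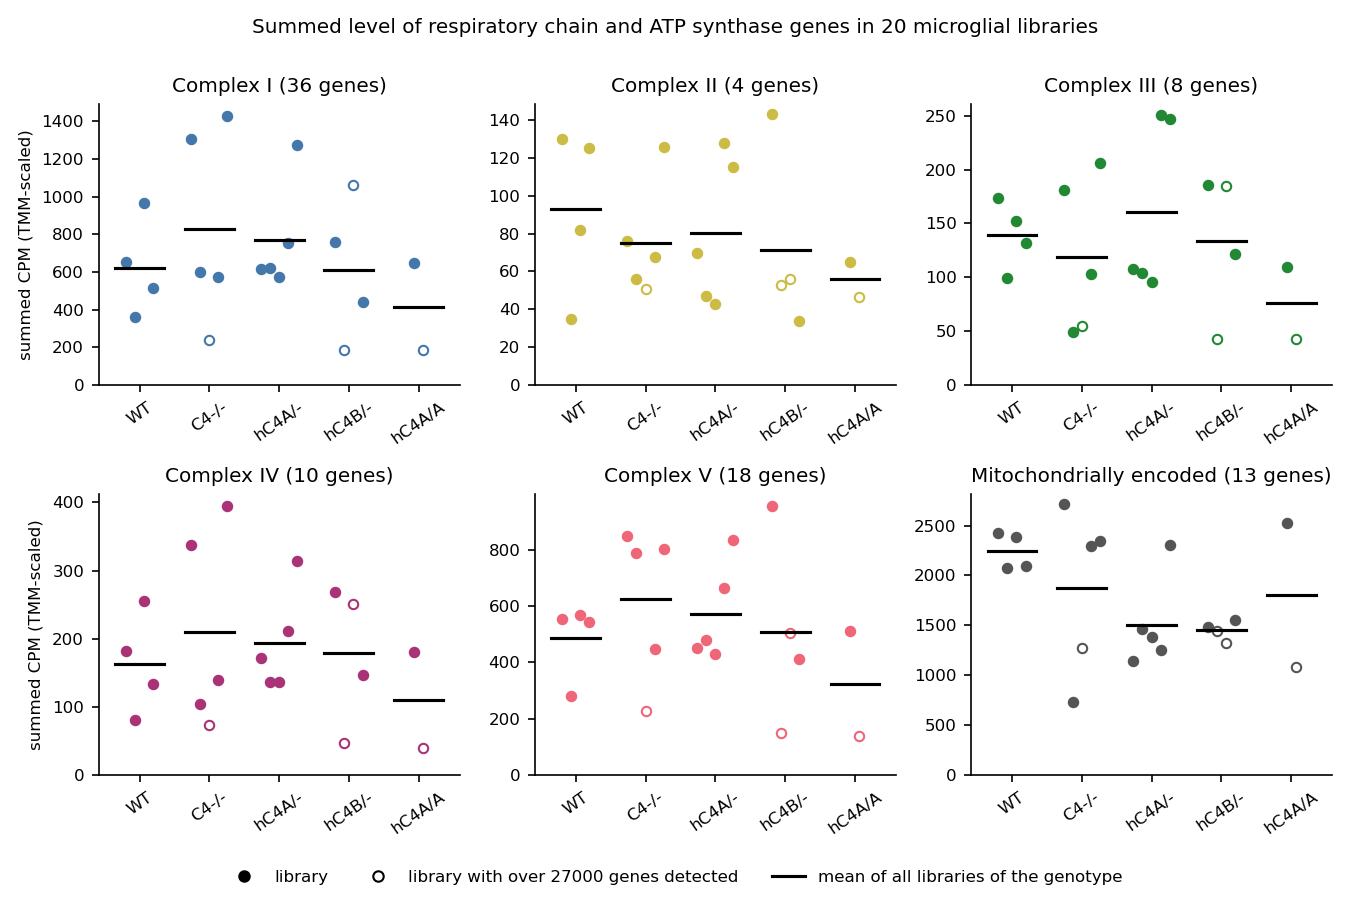
Summed TMM-scaled CPM of the genes of each complex and of the 13 mitochondrially encoded subunits, on linear axes from 0; each point is 1 library, open points are the 4 libraries with over 27000 genes detected, and bars are genotype means. The genotypes overlap in every panel of nuclear genes, and the 3 lowest points of the panels of complexes I, IV and V are open ones.

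The comparisons between genotypes ask what changes with loss of mouse C4, with either human gene and with human C4A dose. No gene of the family passed in any of them by edgeR's quasi-likelihood test with Benjamini-Hochberg adjustment over all 12680 genes tested. Among all genes, 0% passed in each of the 9 pairwise comparisons, and 0.118% (15 genes) in the test of any difference among the 5 genotypes. Without the broad libraries, 0 genes of the family passed. Of the 12397 genes then tested, 0.00807% (1 gene) passed in hC4A/- against WT, 0.0161% (2 genes) for any difference, and 0% in each other comparison. Standard errors of the family's log2 fold changes had a median of 0.81 to 1.14 over the 9 comparisons, so changes of about 2-fold could not be separated from the spread between libraries. Many of the comparisons share libraries, and each is described by its own values.

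At an unadjusted p under 0.05, few genes of the family were found, with a share below that of all genes in 8 of the 9 pairwise comparisons. In C4-/- against WT it was 1 of 73, against 8.55% of all genes. In hC4A/- against WT it was 0, against 7.51%, in hC4B/- against WT 1, against 13.1%, and in hC4A/A against WT 0, against 8.41%. Against C4-/-, it was 0 for hC4A/- (10.7% of all genes), 2 for hC4B/- (4.52%) and 2 for hC4A/A (2.17%). It was 3 in hC4A/- against hC4B/- (16.7%) and 1 in hC4A/A against hC4A/- (11.5%). In the test of any difference it was 0, against 12% of all genes. By DESeq2 the counts against WT were 1 for C4-/- (10.8% of all genes), 1 for hC4A/- (8.22%), 4 for hC4B/- (19.1%) and 2 for hC4A/A (12.3%). Against C4-/- DESeq2 gave 1 for hC4A/- (12.4%), 3 for hC4B/- (4.84%) and 5 for hC4A/A (2.6%). It gave 4 in hC4A/- against hC4B/- (21.9%), 6 in hC4A/A against hC4A/- (14.9%) and 2 for any difference (15.5%). With limma voom, the counts against WT were 1 for C4-/- (4.99%), 0 for hC4A/- (3.92%), 1 for hC4B/- (8.29%) and 1 for hC4A/A (5.58%). Against C4-/- they were 1 for hC4A/- (5.35%), 0 for hC4B/- (2.16%) and 1 for hC4A/A (2.53%). It found 3 in hC4A/- against hC4B/- (8.86%), 1 in hC4A/A against hC4A/- (5.7%) and 0 for any difference (5.02%). Neither called a gene of the family after adjustment.

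The fold changes of the family were spread around medians that stood apart from those of all genes in some comparisons. For hC4A/- against WT, the median log2 fold change was 0.33 with 55 of 73 genes above 0, while the median of all genes was -0.05. Without the broad libraries these were 0.32 and 0.01. In C4-/- against WT the medians were 0.28 for the family, with 53 genes above 0, and 0.33 for all genes. Without the broad libraries they were 0.30 and 0.02. In hC4B/- against WT they were 0.21, with 47 above 0, and 0.18, and without the broad libraries 0.20 and -0.20. The genes of a library move together, so these counts are not independent observations. The pooled SD between libraries of a genotype was 0.742 for the family's median log2 CPM and 0.446 for that of all genes. No p is attached to a median, and nothing is read from it for the family alone.

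In hC4A/A, which has 2 libraries of which 1 is broad, the family's medians were below 0 and below those of all genes. Against WT the median log2 fold change was -0.52, with 54 of 73 genes below 0, and 0.18 for all genes. Against C4-/- it was -0.88, with 63 below 0, and -0.02 for all genes, and against hC4A/- -0.81, with 65 below 0, and 0.17. Without the broad libraries 1 hC4A/A library remains, and the medians were -0.11 (all genes -0.30), -0.46 (-0.41) and -0.45 (-0.35), on either side of those of all genes. With only replicate 2, the broad library, left out, the family's medians were -0.05, -0.50 and -0.37 and those of all genes -0.31, -0.95 and -0.31. With replicate 1 left out they were -1.40, -1.60 and -1.77, and 0.55, 0.40 and 0.49 for all genes. In these fits the lone library is assumed to vary like the other groups.

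Among the remaining comparisons, hC4A/- against C4-/- had a median of -0.07 for the family and -0.32 for all genes, hC4B/- against C4-/- -0.20 and -0.03, and hC4A/- against hC4B/- 0.03 and -0.14. The sign of the family's median depended on the scaling in hC4B/- against C4-/- and hC4A/- against hC4B/-: by RLE it was 0.13 and -0.33. In each of these 3 comparisons it also turned when certain single libraries were left out, reaching 0.21, 0.37 and -0.29. RLE also moved the median of all genes by over 0.1, for example to 0.53 in hC4B/- against WT and to 0.48 in hC4A/A against WT.

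The complexes did not share a direction in every comparison. In C4-/- against WT, 10 of 10 genes of complex IV, 29 of 36 of complex I and 11 of 15 of complex V had a log2 fold change above 0, with medians of 0.28, 0.44 and 0.59. Only 2 of 8 of complex III and 1 of 4 of complex II did, with medians of -0.11 and -0.34. Of all 12680 genes tested, 7725 lay above 0 in this comparison, with a median of 0.33. Above 0 in hC4A/- against WT were 28 of 36, 2 of 4, 6 of 8, 8 of 10 and 11 of 15 from complex I to complex V. In hC4B/- against WT they were 25, 2, 5, 7 and 8. In hC4A/A against WT they were 12, 1, 0, 2 and 4, and without the broad libraries 8 of 10 genes of complex IV lay above 0, with a median of 0.25. Over all genes the medians against WT were -0.05 for hC4A/-, 0.18 for hC4B/- and 0.18 for hC4A/A. Without the broad libraries that of hC4A/A was -0.30. No difference between complexes was tested.

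**Figure D3:**
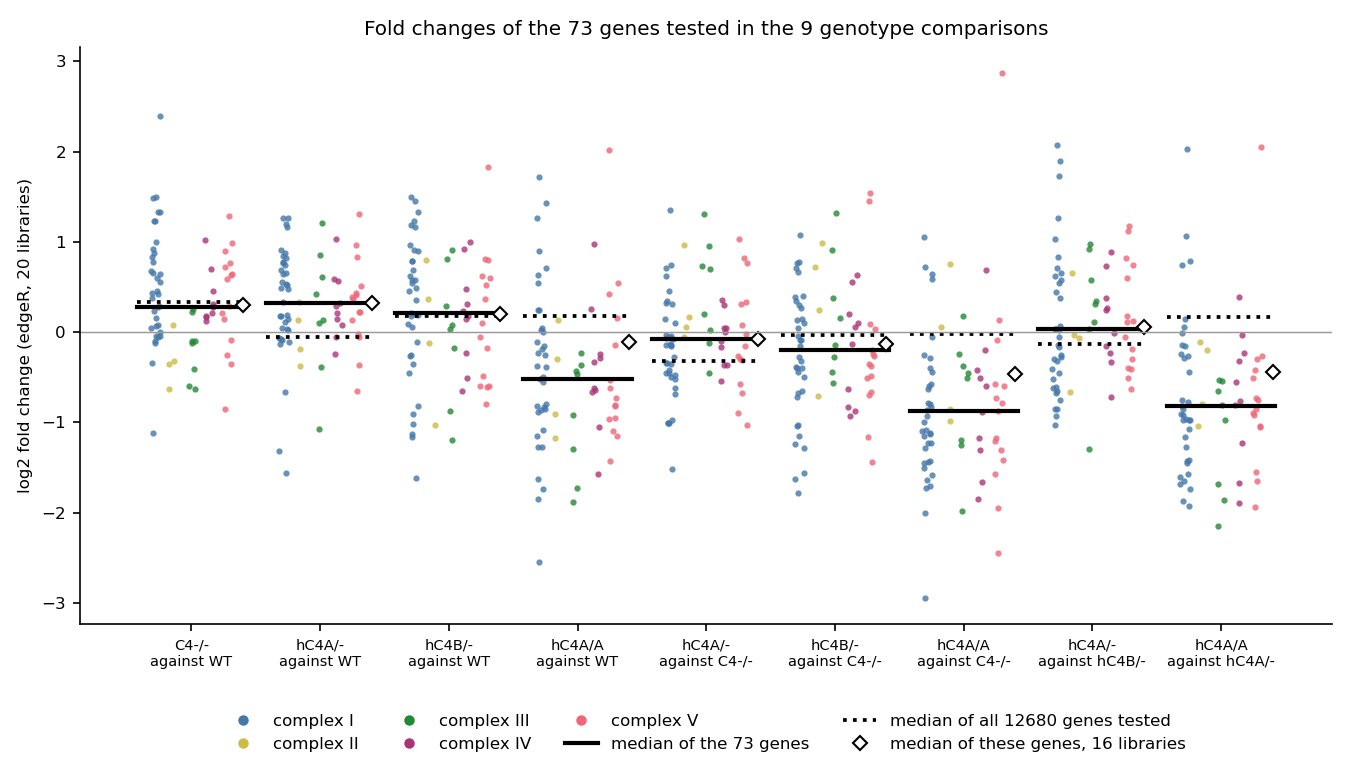
log2 fold change of each of the 73 genes tested, by complex, in the 9 pairwise comparisons (edgeR, 20 libraries); solid bars are medians of the family, dotted bars medians of all 12680 genes tested, and open diamonds the family's medians in the 16 libraries that were not broad. The solid bars of the 3 comparisons of hC4A/A lie at -0.52, -0.88 and -0.81, and their diamonds closer to 0.

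The 5 genes of smallest p in the test of any difference were 4 subunits of complex I and 1 of complex V. Ndufb9 and Ndufa9 are accessory subunits, Ndufs1 is the largest iron-sulfur core subunit, Ndufv3 is an accessory subunit of the NADH-binding module, and Atp5l is subunit g of the ATP synthase. Their edgeR adjusted p were 0.462 for Ndufb9, 0.465 for Atp5l, 0.496 for Ndufs1, 0.558 for Ndufv3 and 0.566 for Ndufa9.

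Ndufs1 (chr1:63143596-63176833) had 97.8, 64.8, 279.8 and 79.2 CPM in WT, 160.5, 214.5, 13.8, 120.9 and 144.4 in C4-/-, 78.7, 121.4, 179.2, 131.1 and 191.9 in hC4A/-, 79.4, 18.1, 10.2 and 60.7 in hC4B/-, and 65.1 and 18.1 in hC4A/A. The 4 broad libraries had 10.2 to 18.1 CPM, and the 16 others 60.7 to 279.8, with no overlap. Its log2 fold change in hC4B/- against WT was -1.62 ± 0.78 (SE, edgeR adjusted p = 0.380), and -0.63 without the broad libraries. In hC4B/- against C4-/- it was -1.63 ± 0.76 (adjusted p = 0.990 by edgeR), and -0.92 without them. The value for hC4A/- against hC4B/- was 1.73 ± 0.76 (adjusted p = 0.266 by edgeR), and 0.91 without them. In hC4A/A against WT it was -1.63 ± 1.01 (adjusted p = 0.657 by edgeR), and -0.92 without them. WT replicate 3 was the highest of the 20 libraries, and without it the values against WT were -0.92 for hC4B/- and -0.94 for hC4A/A. Without hC4B/- replicate 3 they were -1.04 for hC4B/- against WT and -1.03 against C4-/-. For hC4A/A against WT it was -2.66 without hC4A/A replicate 1 and -0.97 without replicate 2. Its exons overlap those of Eef1b2, so some of its reads cannot be assigned.

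Ndufb9 (chr15:58933756-58939488) had 8.68, 0.712, 3.83 and 6.91 CPM in WT and 85.7, 6.53, 6.55, 23.6 and 13.3 in C4-/-. It had 10.4, 3.76, 5.49, 8.19 and 19.4 in hC4A/-, 3.84, 3.62, 34.0 and 4.38 in hC4B/-, and 4.19 and 2.59 in hC4A/A. C4-/- replicate 1 stood far above the rest. The log2 fold change was 2.39 ± 1.02 in C4-/- against WT (edgeR adjusted p = 0.555), -1.51 ± 0.91 in hC4A/- against C4-/- and -2.94 ± 1.42 in hC4A/A against C4-/-. Without that library these were 1.29, -0.41 and -1.84, and without the broad libraries 2.39, -1.53 and -2.70.

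Ndufv3 (chr17:31520115-31531331) had 23.7, 13.5, 15.3 and 15.8 CPM in WT, 71.9, 4.66, 9.18, 13.4 and 15.97 in C4-/-, 24.2, 32.8, 23.3, 53.8 and 12.2 in hC4A/-, 4.70, 4.82, 13.6 and 8.04 in hC4B/-, and 8.71 and 6.48 in hC4A/A. The hC4B/- libraries overlapped hC4A/- by 1 library on each side. The log2 fold change in hC4A/- against hC4B/- was 1.89 ± 0.84 (edgeR adjusted p = 0.267), and 2.09 without the broad libraries. Ndufa9 (chr6:126821721-126849136) had 12.7, 10.7, 4.60 and 12.6 CPM in WT, 5.75, 13.1, 3.28, 1.07 and 24.6 in C4-/-, 36.6, 8.60, 31.6, 20.5 and 25.2 in hC4A/-, 4.27, 4.82, 10.2 and 3.65 in hC4B/-, and 7.74 and 7.77 in hC4A/A. Of the 5 hC4A/- libraries, 4 lay above every hC4B/- library. The log2 fold change was 2.08 ± 0.91 in hC4A/- against hC4B/- (edgeR adjusted p = 0.266), and 2.53 without the broad libraries.

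Atp5l (chr9:44912557-44920742) had 20.4, 5.69, 8.43 and 3.66 CPM in WT, 9.78, 6.53, 6.55, 1.07 and 2.66 in C4-/-, 1.38, 13.4, 8.24, 19.3 and 4.76 in hC4A/-, 25.6, 12.1, 11.6 and 8.77 in hC4B/-, and 59.7 and 18.1 in hC4A/A. Both hC4A/A libraries lay above all 5 of C4-/-, and Atp5l thus ran opposite to the median of the family in this genotype. Its log2 fold change in hC4A/A was 2.02 ± 1.08 against WT (edgeR adjusted p = 0.607), 2.87 ± 1.02 against C4-/- and 2.05 ± 1.02 against hC4A/-. Without the broad libraries these were 2.58, 3.74 and 2.53. With hC4A/A replicate 1 left out they were 0.96, 1.97 and 0.90. It is the complex V gene whose upstream stretch is printed above.

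**Figure D4:**
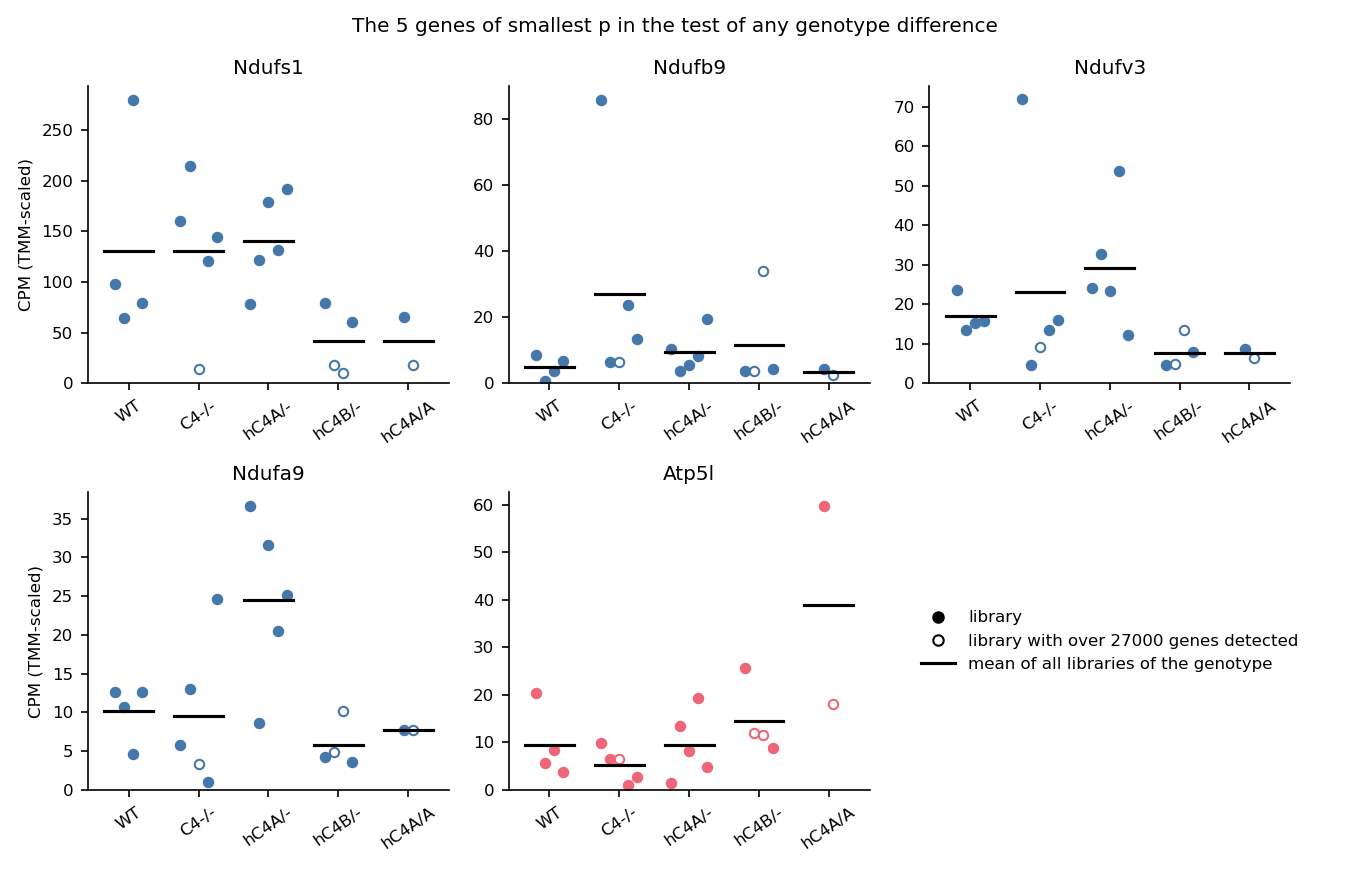
TMM-scaled CPM of the 5 genes of smallest p in the test of any genotype difference, on linear axes from 0; each point is 1 library, open points are the 4 libraries with over 27000 genes detected, and bars are genotype means. For Ndufs1 the 4 open points lie at 10.2 to 18.1 CPM, below all filled points, and for Ndufb9 a single C4-/- library reaches 85.7.

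The remaining genes of smallest p are given by comparison. In C4-/- against WT they were Ndufb5 (log2 fold change 1.496 ± 0.91, and 0.95 without C4-/- replicate 1) and the core subunit Ndufs3 (1.24 ± 0.77). The genes for hC4A/- against WT were Ndufb10 (-1.57 ± 0.87), Ndufa10 (-1.31 ± 0.82) and Ndufa7 (1.27 ± 0.83). Ndufb10 in WT replicate 3 had 141.8 CPM, against 4.98 to 34.5 in the other WT libraries, and without that library its log2 fold change was -0.40. Without hC4A/- replicate 5 it was -0.99. In hC4B/- against WT they were Atp5j2 (1.82 ± 0.96), subunit f of the ATP synthase, and Ndufa12 (1.49 ± 1.02). Atp5j2 had 308.0, 4.82, 31.3 and 134.5 CPM in hC4B/-, where the 2 low libraries were the broad ones, and 20.7, 12.8, 18.4 and 82.9 in WT, and its log2 fold change was 2.80 without the broad libraries, 0.77 without hC4B/- replicate 1 and 2.93 without WT replicate 4. In hC4A/A against WT it was Ndufb10 (-2.54 ± 1.28, and -1.38 without WT replicate 3). In hC4A/- against C4-/- they were Ndufa9 (1.36 ± 0.82, and 2.09 without C4-/- replicate 5) and Uqcrc2 (1.31 ± 0.80). In hC4B/- against C4-/- Ndufv3 had -1.56 ± 0.83, which was -0.46 without C4-/- replicate 1 and -0.98 without hC4B/- replicate 2. Against C4-/-, Atp5h in hC4A/A had -2.44 ± 1.24, which was -4.15 without hC4A/A replicate 1. In hC4A/A against hC4A/- they were Ndufa10 (2.03 ± 0.96) and Atp5g3 (-1.94 ± 1.08). Ndufa10 had 83.5 and 11.7 CPM in hC4A/A and 5.49 to 27.2 in hC4A/-, and its value was 0.09 without hC4A/A replicate 1. Atp5g3 had 12.3 and 2.59 CPM in hC4A/A and 14.4 to 53.8 in hC4A/-, and its value was -3.42 without hC4A/A replicate 1 and -1.24 without replicate 2. None passed the adjustment.

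Atp5g1, Atp5g2 and Atp5g3 encode the same mature subunit c, the ring of the ATP synthase, with different import sequences. Over all libraries they held 447, 191 and 779 counts, and Atp5g3 was also highest per kb, at 8.92 CPM per kb against 3.11 for Atp5g2 and 2.47 for Atp5g1. Among the counts of the 3 genes, Atp5g3 took 66.4%, 47.4%, 57.1% and 63.4% in WT and 55.0%, 58.2%, 60%, 66.7% and 65.6% in hC4A/-. It took 29.7%, 29.4%, 47.5%, 64.8% and 50% in C4-/-, 49.0%, 46.7%, 30.4% and 51.4% in hC4B/-, and 43.7% and 18.2% in hC4A/A. Every hC4A/- library thus lay above every hC4B/- and hC4A/A library, a pattern seen after the values were examined and not tested as a share. The shares rest on few reads. Atp5g1, Atp5g2 and Atp5g3 held 7, 1 and 7 counts in hC4B/- replicate 2, and 6, 3 and 2 in hC4A/A replicate 2. The closest shares, 55.0% in hC4A/- replicate 1 and 51.4% in hC4B/- replicate 4, rest on 22 and 18 counts of Atp5g3. Atp5g1 took 17.5% to 35.8% in hC4A/- and 38.2% to 64.3% in hC4B/-. The genes themselves had edgeR adjusted p of 0.970 for Atp5g1, 0.922 for Atp5g2 and 0.762 for Atp5g3 in the test of any difference. The lowest share of Atp5g3, 18.2%, came from hC4A/A replicate 2, a broad library.

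**Figure D5:**
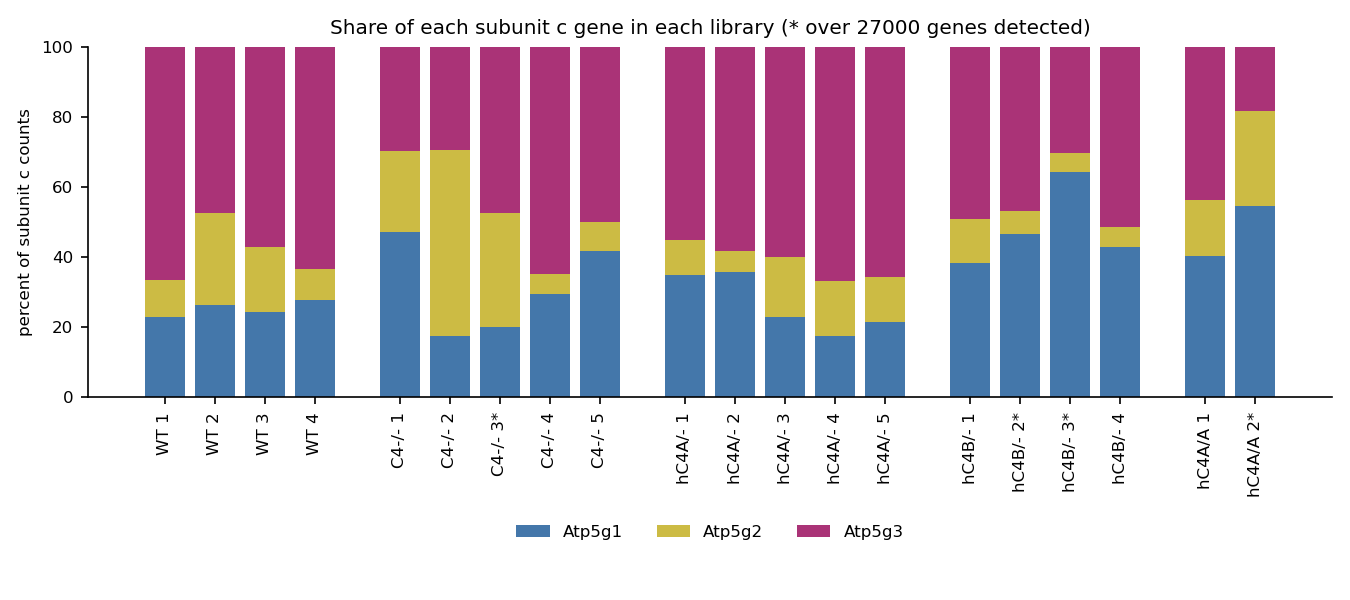
Share of each of the 3 subunit c genes among their summed counts, in percent, for each of the 20 libraries; libraries are ordered by genotype and an asterisk marks those with over 27000 genes detected. Atp5g3 takes 55.0% to 66.7% in the 5 hC4A/- libraries and 30.4% to 51.4% in the 4 hC4B/- libraries. Some libraries hold few reads of these genes, such as 7, 1 and 7 in hC4B/- replicate 2.

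The mitochondrially encoded subunits, the partners of these genes in 4 of the complexes, were measured unevenly. Of 13 genes 7 passed the filter, led by mt-Nd1 with 33147 counts and mt-Co1 with 9691, whereas mt-Co3 held 29, mt-Atp6 16, mt-Co2 9, and mt-Atp8 and mt-Nd4l 0. Multimapping reads took 13.2% to 28.9% of each library and were not counted, and their part in these low counts was not tested. The summed level of the 13 genes was 2243 ± 189 CPM in WT (n = 4), 1873 ± 832 in the C4-/- libraries (n = 5), 1508 ± 461 in those of hC4A/- (n = 5) and 1449 ± 99.8 in those of hC4B/- (n = 4). The hC4A/A libraries had 2524 and 1079. Every hC4B/- library, at 1318 to 1554 CPM, lay below every WT library, at 2069 to 2424, which was noticed after the values were seen and not tested as a sum. Of the 7 genes tested in this comparison, 4 had a log2 fold change below 0, led by mt-Nd1 (-1.06 ± 0.81), and 3 above 0, led by mt-Nd5 (1.05 ± 0.80). The broad hC4B/- libraries set both apart. For mt-Nd5 they had 226.8 and 168.8 CPM and the other hC4B/- libraries 48.3 and 29.2, against 35.6 to 112.7 in WT. For mt-Nd1 they had 235.2 and 276.3 and the others 688.5 and 1157.6, against 915.3 to 1345.1 in WT. The nuclear family relative to them was 0.66 ± 0.18 in WT, with a range of 0.41 to 0.85, and 1.19 ± 0.28 in hC4A/-, with a range of 0.92 to 1.61. These 2 ranges, noticed after the values were seen, did not overlap, which was not tested. C4-/- (0.50 to 2.18) and hC4B/- (0.33 to 1.56) overlapped both, and the 2 hC4A/A libraries (0.42 and 0.60) lay within the range of WT. No mitochondrially encoded gene passed the test in any comparison.

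The other lists of the pathway likewise held no gene that passed after adjustment. They comprised 37 of 46 assembly factors tested, 15 of 16 genes of the TCA cycle, 8 of 9 carriers and electron donors, 9 of 12 regulators of mitochondrial biogenesis, and 6 of 14 isoform and further subunit genes. At an unadjusted p under 0.05, 0 to 4 of the 37 assembly factors and 0 to 3 of the 15 genes of the TCA cycle were found per pair. Assembly factors numbered 3 higher and 0 lower in hC4A/- against WT, where 7.51% of all genes passed, 1 higher and 2 lower in hC4B/- against WT (13.1%), and 3 higher and 1 lower in hC4A/- against hC4B/- (16.7%). Genes of the TCA cycle numbered 0 higher and 2 lower in C4-/- against WT (8.55%) and in hC4A/- against WT (7.51%), 1 higher and 0 lower in hC4B/- against WT (13.1%), 1 and 1 in hC4B/- against C4-/- (4.52%), and 2 higher and 1 lower in hC4A/- against hC4B/- (16.7%). Ppargc1a, a coactivator of mitochondrial biogenesis, held 32 counts and did not pass the filter, and the DNA-binding regulators Nrf1, Gabpa and Yy1 held 1218, 414 and 1632.

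Single libraries set the largest differences there. hC4B/- replicate 3 had 2609 CPM of Fh1, the fumarase of the TCA cycle, against 2.66 to 74.8 in the other 19 libraries. It also had 1673 CPM of Vdac2, a channel of the outer membrane (13.1 to 89.7 in the others), and 775.9 CPM of Timmdc1, an assembly factor of complex I (6.03 to 204.7). Slc25a3, the phosphate carrier that supplies the ATP synthase, resembled Ndufs1: its 4 broad libraries spanned 33.3 to 44.6 CPM, and the other 16 spanned 140.3 to 473.7.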

How the data were processed

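Each library came from sorted microglia of 1 mouse, with template-switched, amplified cDNA and Nextera libraries, per the labels' protocols. The deposited files hold raw read counts for each gene, laid out as in STAR's gene count output. STAR, edgeR and the build GRCm38 are named per the submitters' processing notes, without versions or annotation. The unstranded count column was used, since 49.7% to 49.9% of stranded counts lay on one strand. Summary lines of unmapped (14.8% to 42.1% of reads), multimapping (13.2% to 28.9%), featureless (21.8% to 42.1%) and ambiguous reads (0.897% to 5.86%) stayed out. Symbols and exons came from GENCODE release 21 for mouse, where 54809 of 54838 identifiers had a symbol.

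All 20 libraries entered 1 edgeR quasi-likelihood fit (edgeR 4.0.16, limma 3.58.1 and DESeq2 1.42.0 in R 4.3.3): filterByExpr by genotype, TMM scaling, 1 coefficient per genotype, 15 residual degrees of freedom, robust, adjusted p under 0.05. The biological coefficient of variation was 1.03. The standard error is the log2 fold change divided by the square root of F. Alternatives were RLE scaling, no filter, DESeq2, limma voom, a replicate block, leaving out the broad libraries and leaving out each library. The genes named are the most abundant per kb of each complex, the 5 of smallest p for any difference, the 3 of smallest p per comparison, and Atp5g1 to Atp5g3; 1 gene that this rule names is not reported here. The family and all lists were chosen with earlier results of these data known. The labels give 1 mouse per library but no litter, so p-values measure the spread between these libraries.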

Additional observations from a re-analysis of the deposited data

Results flagged for a closer look

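Of 64 groups of 4 or 5 libraries examined, 7 held a library set apart from the rest by its gap relative to the range. The nominal rate by chance is about 5% of groups. It does not apply strictly here, since the groups share libraries and Ndufb9, Ndufs1 and Ndufv3 were named for small p in the same data. No excess over it is read. The summed level of complex I was 1272 CPM in hC4A/- replicate 5, against 574 to 755 in the other 4 libraries. The summed level of complex V was 282 CPM in WT replicate 2, against 546 to 567. Ndufs8 had 52.8 CPM in WT replicate 4, against 23.5 to 27.4, and Ndufs1 had 279.8 CPM in WT replicate 3, against 64.8 to 97.8. In C4-/- replicate 1, Ndufb9 had 85.7 CPM, against 6.53 to 23.6 in the other C4-/- libraries, and Ndufv3 had 71.9, against 4.66 to 15.97. Ndufb9 also had 34.0 CPM in hC4B/- replicate 3, a broad library, against 3.62 to 4.38.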

How the results depend on the processing

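The count of family genes passing was 0 in all 10 tests under all 26 alternatives, leave-one-out fits included, and the smallest adjusted p was 0.106. Over all genes, the count for any difference was 15, and became 24 by RLE, 697 with no filter, 65 by DESeq2, 0 by limma voom, 2 without the broad libraries and 0 to 34 when 1 library was left out. In the pairwise comparisons, where edgeR called 0, no filter gave up to 65, DESeq2 up to 58 and limma voom up to 6. Correlations of same-numbered libraries of different genotypes ran from -0.301 to 0.697 (33 pairs, median 0.008). Those of libraries with other numbers ran from -0.71 to 0.71 (124 pairs, median -0.001). Of 20 libraries, 6 correlated best with their own number, which neither shows nor excludes a pairing by number. With the replicate block 0 genes of the family passed, and 0 of all genes for any difference. The family's median log2 fold change in C4-/- against WT turned to -0.03 with no filter and with the block, and to -0.08 without C4-/- replicate 5. In hC4B/- against WT it turned to -0.03 with no filter and -0.08 without hC4B/- replicate 3. In hC4A/- against C4-/-, where it was -0.07, it turned to 0.07 by limma voom, 0.27 with no filter, 0.04 with the block and, at most, 0.21 without 1 library (C4-/- replicate 5). In hC4B/- against C4-/- it turned to 0.14 by DESeq2, 0.05 with the block and at most 0.37 without 1 library (hC4B/- replicate 2). In hC4A/- against hC4B/- it turned to -0.33 by DESeq2, -0.02 with the block and -0.29 at the lowest without 1 library (hC4B/- replicate 2). In hC4A/- against WT it stayed at 0.17 to 0.48 when 1 library was left out, and was 0.09 with the block. The causes were not tested. At median counts of 4 to 76 per gene, depth limits single genes.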
